A study of Mus musculus with 16 samples.

Results

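The effect of NR was followed in mouse hearts under pressure overload, as the difference between 5 NR TAC libraries and 4 Vehicle TAC libraries, 9 of the 16 in the series. TAC is the usual abbreviation for transverse aortic constriction, a narrowing of the aorta that makes the left ventricle pump against a raised pressure. NR is the usual abbreviation for nicotinamide riboside, a vitamin B3 form that cells turn into NAD+, and the series title concerns raising NAD+ in heart failure. The NR TAC group received NR and the TAC surgery, and the Vehicle TAC group received vehicle and the same surgery. The other 7 libraries are hearts with sham surgery, 4 NR SHAM and 3 Vehicle SHAM, and serve here for values set beside the main ones. Total RNA of pieces of heart was sequenced, so muscle, vessels, connective tissue and blood are read together. Strain, age, sex, dose, the time after surgery and whether libraries came from separate animals are not given in the labels.

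Members of the comparison are genes whose average of the NR TAC and Vehicle TAC means was at least 50 normalized counts: 12914 of 21420 genes, with 8506 below. The effect of a gene is log2 of the NR TAC mean plus 1 over the Vehicle TAC mean plus 1, so a positive value is higher in NR TAC hearts. The authors' deposited table gives 1 mean for each group and a DESeq p-value, not a value for each library. The spread between hearts therefore enters only through that p-value, and whether the libraries of the groups overlap cannot be seen. The means summed to 45.6 (NR TAC) and 43.0 (Vehicle TAC) in units of 1e6 normalized counts. Heart muscle markers fitted the labelled tissue, with Myh6, the fast myosin of adult mouse heart, at 530984.3 in NR TAC and 509169.9 in Vehicle TAC, and Tnni3, cardiac troponin I, at 130885 in NR TAC and 118038 in Vehicle TAC.

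A failing heart is known to switch off part of its fatty acid oxidation and mitochondrial gene program, to bring back fetal genes such as those for natriuretic peptides and skeletal actin, and to lay down collagen. NAD+ carries electrons from fuel oxidation to the respiratory chain and is the substrate of sirtuins and PARPs, and nicotinamide riboside enters the pool through the kinases NMRK1 and NMRK2. NAD+ and the sirtuins are also linked to the circadian clock, in which CLOCK and BMAL1 switch on Per, Cry and Rev-erb genes through the E-box CACGTG, and the PER, CRY and REV-ERB proteins repress in return.

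The 2 groups were close over most genes. The median effect was 0.00, the quartiles were −0.12 and 0.11, and 79.9% of the 12914 genes lay within 0.25 of 0. An effect above 0 was found in 50.7%. Size factors of the pair scale the means and centre the ratios, so the median and this share are largely set by the scaling. Of 21420 genes, 0 (0%) in the authors' deposited table had a DESeq adjusted p below 0.05, and the smallest DESeq adjusted p was 0.600. Without adjustment, 558 genes (2.61%) had a p below 0.05. Among the 12914, 129 genes were higher in NR TAC with such a p (0.999%) and 261 were lower (2.02%). What follows is therefore a description of named genes and lists, none of which passed the test over all genes, and each count is to be read against those shares. Around the minimum mean of 50, the gene just inside had an effect of 0.06 and the gene just outside an effect of 0.03. The 315 genes with means of 50 to 60 had quartiles of −0.31 and 0.20, and the 367 genes with means of 40 to 50 had quartiles of −0.32 and 0.20.

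Most genes of the circadian clock's negative arm and of its output were higher in NR TAC hearts. Of 16 repressor and output genes, 14 were higher, with a median effect of 0.49 against 0.00 over all genes. Of the 16, 5 had an unadjusted p below 0.05, all higher, against 0.999% of all genes in that direction. The 7 activators and related genes had a median of −0.05, with 3 higher and 0 at such a p. The promoters of some of these genes are shown because they carry the E-box through which the clock is known to act. Windows of 250 bases before to 50 bases after the start site are from RefSeq on GRCm38.p6, 5′ to 3′ in the direction of the gene, with CACGTG in capitals. The Per1 window lies at chr11:69098699-69098998 on the plus strand, with the E-box 166 bases before this listed start. That start is inside the Per1 gene, which runs from 69095217 to 69109960, and is not its 5′ end. The Ciart window lies at chr3:95882179-95882478 on the minus strand and has 3 E-boxes, the farthest 116 bases before the start. Tef has 2 listed starts with an E-box each, at chr15:81802423-81802722 (127 bases before the start) and chr15:81811164-81811463 (138 bases before it), both on the plus strand.
Per1: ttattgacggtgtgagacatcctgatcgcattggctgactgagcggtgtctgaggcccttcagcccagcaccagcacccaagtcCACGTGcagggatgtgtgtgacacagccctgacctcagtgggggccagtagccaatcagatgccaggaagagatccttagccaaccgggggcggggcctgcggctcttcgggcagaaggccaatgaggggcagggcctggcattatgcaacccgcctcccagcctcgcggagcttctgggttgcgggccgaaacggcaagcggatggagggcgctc
Ciart: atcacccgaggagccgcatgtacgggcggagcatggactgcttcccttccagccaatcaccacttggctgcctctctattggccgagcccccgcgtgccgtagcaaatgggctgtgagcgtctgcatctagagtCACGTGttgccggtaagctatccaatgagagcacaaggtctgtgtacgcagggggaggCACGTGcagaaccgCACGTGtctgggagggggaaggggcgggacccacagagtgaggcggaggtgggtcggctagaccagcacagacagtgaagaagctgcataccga
Tef, first start: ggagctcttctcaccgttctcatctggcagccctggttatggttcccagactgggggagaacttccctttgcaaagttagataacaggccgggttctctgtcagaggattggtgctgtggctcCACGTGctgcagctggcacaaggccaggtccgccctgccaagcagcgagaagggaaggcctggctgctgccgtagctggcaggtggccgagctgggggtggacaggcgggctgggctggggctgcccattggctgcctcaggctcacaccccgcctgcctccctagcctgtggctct
Tef, second start: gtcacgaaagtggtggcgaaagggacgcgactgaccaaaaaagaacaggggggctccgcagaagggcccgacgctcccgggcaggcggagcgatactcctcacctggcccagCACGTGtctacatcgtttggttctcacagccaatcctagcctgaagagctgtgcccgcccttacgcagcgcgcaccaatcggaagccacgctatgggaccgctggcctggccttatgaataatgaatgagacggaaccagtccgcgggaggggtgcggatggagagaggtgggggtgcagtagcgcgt

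The motif CACGTG, which reads the same on both strands, was present in 2349 of 32851 RefSeq promoter windows (7.15%), or in 8.09% of 27025 genes. Of the 16 clock repressor and output genes 13 had a window in the RefSeq table, and 5 of these (38.5%) held the motif: Per1, Cry1, Tef, Bhlhe41 and Ciart. The windows of Noct, Nr1d1, Nr1d2, Usp2, Hlf, Per3, Cry2 and Dbp lacked the motif, and all of these genes were higher in NR TAC. Of the genes that held it, Bhlhe41 was lower (−0.26) and Cry1 was at 0.12. Per2, Bhlhe40 and Wee1 had no entry. These matches describe letters in the window and were not set against binding data.

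Per1, a core repressor with a window at an internal start shown above, had 3378.4 normalized counts in NR TAC and 2105.0 in Vehicle TAC (from the authors' deposited table, effect 0.68, DESeq p 0.00124, adjusted p 1). Per2, its partner, had 780.9 in NR TAC and 441.2 in Vehicle TAC (effect 0.82, DESeq p 0.0372 in the authors' deposited table). Both Per genes were thus higher in NR TAC hearts by more than the quartiles of all genes. Noct, a clock output that encodes nocturnin, a phosphatase that turns NADP+ into NAD+, had 3358.9 in NR TAC and 2168.2 in Vehicle TAC (effect 0.63, DESeq p 0.000475). Nr1d2, which encodes the repressor REV-ERB beta, had 5281.9 in NR TAC and 3590.7 in Vehicle TAC (0.56). Usp2, a deubiquitinase with a strong daily rhythm, had 4289.2 in NR TAC and 3224.4 in Vehicle TAC (0.41). These 5 are the members with an unadjusted p below 0.05 in the authors' deposited table. Hlf (0.91), Ciart (0.82), Wee1 (0.69), Per3 (0.54) and Tef (0.44) had effects of like size but unadjusted p-values of 0.087 or more. Bhlhe40 and Bhlhe41, which encode the repressors DEC1 and DEC2, were the members that were lower, at −0.11 and −0.26. Among activators, Arntl, the gene of BMAL1, had 459.5 in NR TAC and 578.3 in Vehicle TAC (−0.33), Npas2 had an effect of −0.30 and Clock one of −0.05, while Rora, whose product activates Arntl, had one of 0.29.

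The same genes were looked up in sham hearts, whose libraries are not shared with TAC hearts. With NR in SHAM, 16 of 16 repressor and output genes were higher, with a median of 0.50, and 6 of 7 activators were lower, with a median of −0.22. Over 12876 genes, 49.6% were higher and 50.4% lower in NR SHAM than in Vehicle SHAM. The sham counts here and below are to be read against those shares. Per1 had 2426.9 in NR SHAM and 1552.1 in Vehicle SHAM, an effect of 0.64 beside 0.68 in TAC hearts, and Noct one of 0.61 beside 0.63. Arntl was at −0.57 in SHAM and −0.33 in TAC, and Npas2 at −0.70 in SHAM and −0.30 in TAC. The largest gap was in Ciart, at 1.92 in SHAM and 0.82 in TAC. The hours of the day at which tissue was taken are not given in the labels. Whether fewer cells of a type or less RNA per cell lies behind a value cannot be told apart in bulk tissue, here or in the lists that follow.

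**Figure D1:**
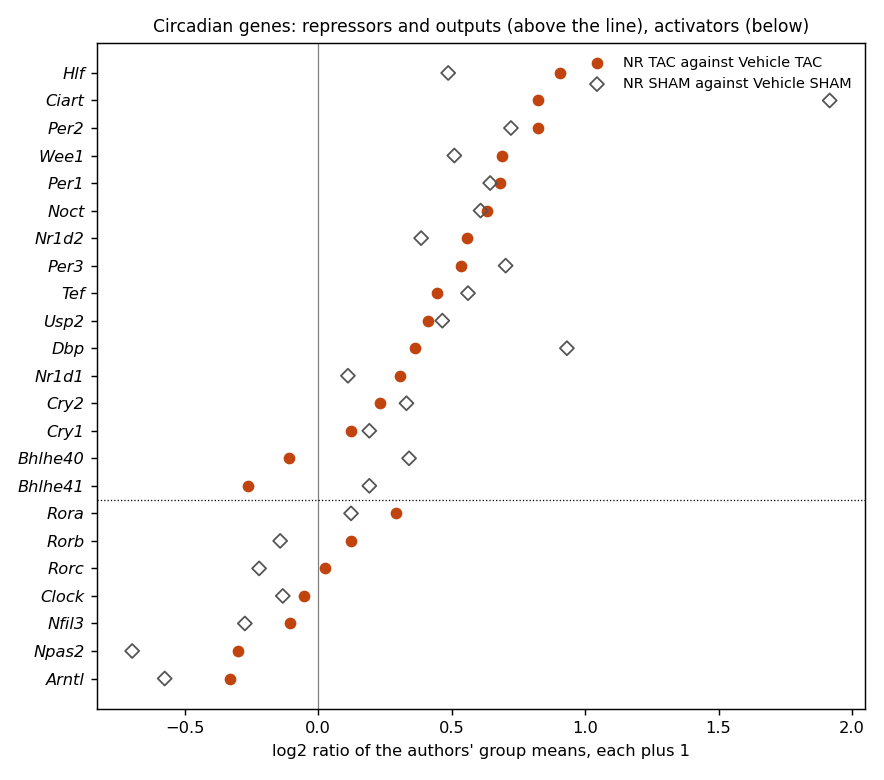
Log2 ratio of the group means, each plus 1, for circadian genes, with NR TAC against Vehicle TAC as filled circles and NR SHAM against Vehicle SHAM as open diamonds; repressors and outputs are above the dotted line and activators below it. In TAC hearts 14 of the 16 repressors and outputs lie right of 0 and in SHAM hearts 16 of 16, while Arntl and Npas2 lie left of 0 in both.

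Genes with a mean of at least 50 were ranked by p, predicted gene models left out. The 8 of smallest p that were higher in NR TAC held Per1, Noct and 6 genes outside the clock. Herpud1, which encodes a membrane protein of endoplasmic-reticulum-associated degradation, had 9488.5 in NR TAC and 5765.7 in Vehicle TAC (from the authors' deposited table, effect 0.72, DESeq p 5.6e-05, adjusted p 0.600). Herpud1 lies on chromosome 8 from 94386438 to 94395377 of GRCm38 on the plus strand. Etfbkmt, a methyltransferase of the electron transfer flavoprotein, had 896.6 in NR TAC and 549.1 in Vehicle TAC (0.71). Klf15, a transcription factor of cardiac lipid and amino acid use, had 2510.6 in NR TAC and 1671.5 in Vehicle TAC (0.59), and Pik3r1, the regulatory subunit of phosphoinositide 3-kinase, had 7883.4 in NR TAC and 5359.2 in Vehicle TAC (0.56). Acer2, an alkaline ceramidase, had an effect of 0.83, and Ifi207, of the interferon-inducible p200 family, one of 0.89. The NR TAC over Vehicle TAC ratio of these genes lay between 1.47 (Pik3r1) and 1.85 (Ifi207). In SHAM hearts the NR effects of Herpud1 (0.37), Etfbkmt (0.39), Pik3r1 (0.40), Acer2 (0.23) and Klf15 (0.22) were positive, while that of Ifi207 was −0.01.

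In the same ranking, the 7 genes described here of the smallest p that were lower in NR TAC are known from several cell types. Aplnr, the apelin receptor of endothelial cells, had 676.9 in NR TAC and 1246.3 in Vehicle TAC (from the authors' deposited table, effect −0.88, DESeq p 0.000634, adjusted p 1). Blk, a kinase of B cells, had 90.4 in NR TAC and 177.1 in Vehicle TAC (−0.96), and of the lymphocyte list only Blk and Ighm had a mean of at least 50. Colq, the collagen-tailed anchor of acetylcholinesterase, had 137.5 in NR TAC and 251.0 in Vehicle TAC (−0.86). Foxs1, a forkhead factor known from pericytes and sensory neurons, was at −1.11, and Tbxa2r, the thromboxane A2 receptor, at −0.92. Spsb4, an adaptor of ubiquitin ligases, was at −0.84 and Lhfpl2 at −0.74. In SHAM hearts these 7 genes were also lower with NR, among them Colq (−0.54, unadjusted p 0.00583 in the authors' deposited table), Foxs1 (−0.58) and Aplnr (−0.43).

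**Figure D2:**
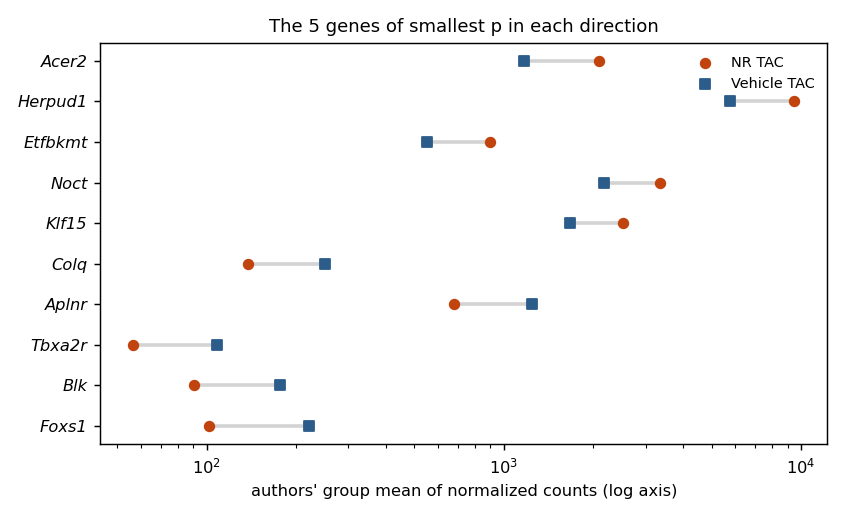
Group means of normalized counts on a log axis for the 5 genes of smallest DESeq p in each direction, with NR TAC as orange circles and Vehicle TAC as blue squares. The upper 5 have the NR TAC mean to the right and the lower 5 to the left, with gaps from 0.59 (Klf15) to 0.83 (Acer2) above and from −0.86 (Colq) to −1.11 (Foxs1) below.

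Listed collagen genes and most other listed matrix genes were lower in NR TAC hearts. All 19 collagen genes of the list were lower, with a median effect of −0.55 and a range of −1.51 to −0.41. Over all genes 50.7% had an effect above 0. The list was chosen with earlier results known, and collagen genes outside it were not summarised. Of these 19, 7 had an unadjusted p below 0.05 in the lower direction, against 2.02% of all genes: Col4a2, Col15a1, Col4a1, Col6a3, Col6a1, Col5a3 and Col6a2. Col4a1 and Col4a2, chains of basement membrane collagen IV, had 12602.9 and 8819 normalized counts in NR TAC and 17827.4 and 12049.6 in Vehicle TAC, both from the authors' deposited table. Their effects were −0.50 and −0.45, and Col15a1, another basement membrane collagen, was at −0.49 (DESeq p 0.0086 in the authors' deposited table). The collagen VI genes Col6a1, Col6a2 and Col6a3, whose products form beaded microfibrils, were at −0.49, −0.44 and −0.41.

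Collagens I and III, which form scar, and collagen VIII had larger effects and higher p-values. Col1a1 had 4481.3 in NR TAC and 8732 in Vehicle TAC (effect −0.96, DESeq p 0.157 in the authors' deposited table). Col3a1 had 6499.6 in NR TAC and 10427.3 in Vehicle TAC (−0.68, p 0.119), and Col8a1, made by activated fibroblasts and vessel cells, had 1492.4 in NR TAC and 2881.3 in Vehicle TAC (−0.95, p 0.0679). Col11a1 and Col8a2 had the lowest values of the list at −1.51 each. Collagens other than the first 3 of smallest p were named after their values were seen.

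**Figure D3:**
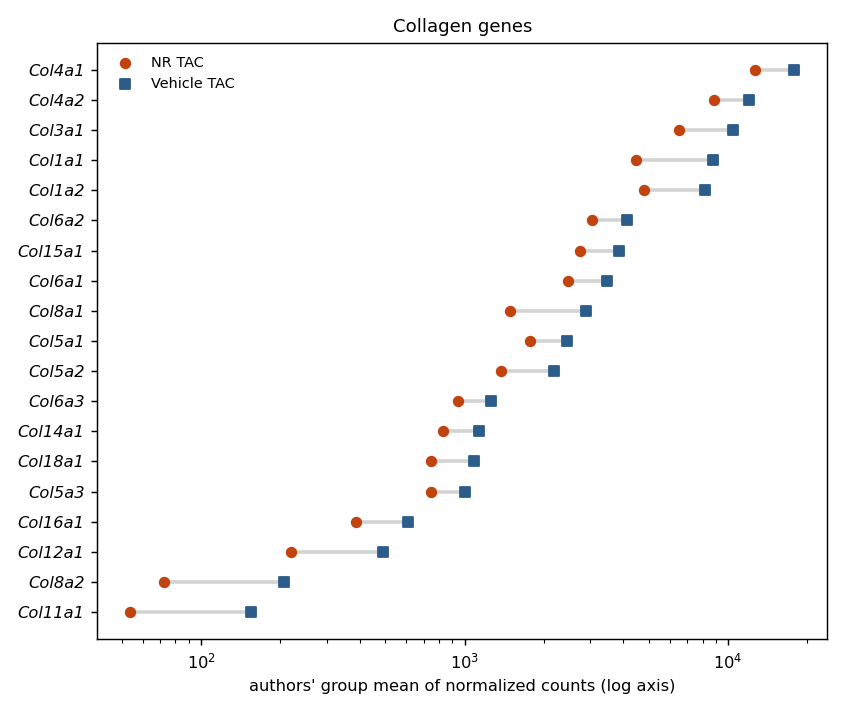
Group means of normalized counts on a log axis for the 19 listed collagen genes, ordered by mean, with NR TAC as orange circles and Vehicle TAC as blue squares. In all 19 rows the NR TAC mean lies left of the Vehicle TAC mean, with gaps between −0.41 (Col6a3) and −1.51 (Col11a1) on the log2 scale.

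Other matrix genes had a wider range. Of 26 matricellular proteins and matrix glycoproteins 22 were lower, with a median of −0.56, and only Fbn1, the microfibril protein fibrillin 1, had an unadjusted p below 0.05 (2252.5 in NR TAC and 3189.3 in Vehicle TAC, effect −0.50, DESeq p 0.0284 in the authors' deposited table). Sparc, which binds collagen during fibril assembly, had 13939.9 in NR TAC and 20985.8 in Vehicle TAC (−0.59). Postn, the periostin of activated fibroblasts, was at −0.94 with a p of 0.17 in the authors' deposited table, and Thbs1, thrombospondin 1, at −1.18 with a p of 0.103. Thbs2 was among the 4 members that were higher, at 0.27. Of 21 measured crosslinkers, proteases and inhibitors with a mean of at least 50, of 22 in the table, 16 were lower and the median was −0.22. Loxl1 and Loxl2, lysyl oxidases that crosslink collagen and elastin, were at −0.66 and −0.57, whereas Timp3, an inhibitor of matrix metalloproteinases, was at 0.52. Among 19 genes of TGF-beta and profibrotic signalling the median was −0.07 and 3 had an unadjusted p below 0.05, all lower: Meox1, a homeobox factor of activated fibroblasts (−0.90), Wisp2 (−1.21) and Gdf15, a stress-induced cytokine (196.3 in NR TAC and 761 in Vehicle TAC, −1.95, DESeq p 0.0388 in the authors' deposited table). The ligand genes Tgfb1, Tgfb2 and Tgfb3 were at −0.24, −0.76 and −0.41.

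Fibroblast identity markers did not share the direction of the collagens in TAC hearts. Of 16, 9 were higher and the median was 0.08. It was −0.01 when the columns were rescaled to equal totals. These totals left out genes 8-fold or more higher in Vehicle TAC than in Vehicle SHAM. Gsn, gelsolin, had 53545.6 in NR TAC and 47939.4 in Vehicle TAC (0.16), and Dcn, decorin, had 48675.6 in NR TAC and 41614.4 in Vehicle TAC (0.23). Smoc2 was the member with an unadjusted p below 0.05 (−0.35). Col1a1, also a member of this list, was at −0.96, Mfap5 at −0.63, Pdgfrl at −0.62 and Pi16 at −0.52. In sham hearts 15 of 16 fibroblast markers were lower with NR, with a median of −0.17, the direction also of the collagens there. The difference between the collagen and fibroblast marker lists was not tested.

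Each matrix list was higher after TAC than in sham hearts, in both treatments. The collagen median was 0.50 in NR TAC over NR SHAM and 1.01 in Vehicle TAC over Vehicle SHAM, with 19 of 19 higher in each. For matricellular genes it was 0.85 in NR TAC over NR SHAM and 1.36 in Vehicle TAC over Vehicle SHAM. The other lists had closer medians. For crosslinkers, proteases and inhibitors it was 0.48 in NR TAC over NR SHAM and 0.59 in Vehicle TAC over Vehicle SHAM. For TGF-beta and profibrotic signalling it was 0.46 in NR TAC over NR SHAM and 0.51 in Vehicle TAC over Vehicle SHAM. The percentage of all genes higher after TAC was not worked out, here or for the cardiac stress genes below. These 2 comparisons share the TAC libraries with the NR effect above and are given side by side, not as further evidence. In sham hearts, which share none, 19 of 19 collagens were lower in NR SHAM than in Vehicle SHAM, with a median of −0.29, and 23 of 26 matricellular genes were lower, with a median of −0.21. Col1a1 had 2695.2 in NR SHAM and 3529.5 in Vehicle SHAM (−0.39), and Col4a1 was at −0.29.

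Genes of cardiac stress, the fetal and load-induced program of the muscle cell, were lower with NR in 18 of 19 cases, with a median of −0.47. Acta1, skeletal alpha-actin, had 68288.2 in NR TAC and 118450 in Vehicle TAC (effect −0.79, DESeq p 0.049 in the authors' deposited table). Ankrd1, a stretch-responsive repeat protein of the sarcomere and nucleus, had 125874 in NR TAC and 196672 in Vehicle TAC (−0.64, p 0.0429). Rcan1, a target and inhibitor of calcineurin, had 7064.5 in NR TAC and 13504.6 in Vehicle TAC (−0.93, p 0.0338). These 3 are the list's members with an unadjusted p below 0.05 in the authors' deposited table, all lower. The natriuretic peptide genes Nppa and Nppb had 29048.6 and 18388.3 in NR TAC and 50097.4 and 30452.7 in Vehicle TAC, with effects of −0.79 and −0.73 and p-values of 0.37 and 0.0758 in the authors' deposited table. Myh7, the slow myosin heavy chain, was at −0.30 and Myh6 at 0.06. Myl4, an atrial light chain, was the 1 member that was higher. In NR TAC over NR SHAM the list's median was 0.73 and in Vehicle TAC over Vehicle SHAM 1.08, with 19 of 19 higher in each. In sham hearts 16 of 19 were lower with NR, with a median of −0.25.

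Structural and electrical genes of the muscle cell differed less in their medians. Sarcomere genes had a median of −0.07 and a range of −0.33 to 0.15 over 19 genes. Calcium handling genes had a median of 0.11 over 20, with a range of −0.17 to 2.09 (Sln). Ion channel genes had a median of 0.12 and a range of −0.20 to 0.95 (Kcnj3). Of the ion channel genes 20 of 27 were higher, or 15 of 27 when the columns were rescaled. None of the genes in these 3 lists had an unadjusted p below 0.05. Adrenergic and muscarinic signalling genes had a median of 0.11 over 13, and Rgs2, an inhibitor of Gq signalling, had 2151.1 in NR TAC and 1268.3 in Vehicle TAC (0.76, DESeq p 0.0134 in the authors' deposited table). Corin, the protease that activates atrial natriuretic peptide, had 14641.1 in NR TAC and 10448.2 in Vehicle TAC (0.49, DESeq p 0.00438 in the authors' deposited table).

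The respiratory chain is encoded in the mitochondrial and the nuclear genome. Of the 13 protein genes of the mitochondrial genome 11 were higher in NR TAC, with a median of 0.29, and together they made up 34.3% of the NR TAC column and 30.2% of the Vehicle TAC column. mt-Atp8, a small subunit of ATP synthase, had 8338.9 in NR TAC and 4428.7 in Vehicle TAC (0.91, DESeq p 0.0368 in the authors' deposited table), and it was the 1 member with an unadjusted p below 0.05. mt-Nd4 and mt-Nd6, subunits of complex I on opposite strands, were each at 0.33, with p-values of 0.0568 and 0.0572 in the authors' deposited table. The list's median was −0.17 in NR TAC over NR SHAM, −0.42 in Vehicle TAC over Vehicle SHAM and 0.05 in NR SHAM over Vehicle SHAM. Nuclear genes of the respiratory complexes lay near 0: the 36 complex I genes had a median of −0.01 and a range of −0.17 to 0.17, and the 40 genes of complexes II to V a median of 0.00 and a range of −0.20 to 0.16.

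Among genes of fuel use, Pdk4 stood apart. Pdk4, the kinase that holds back pyruvate dehydrogenase and so spares glucose, had 22457.2 in NR TAC and 12946.7 in Vehicle TAC (0.79, DESeq p 0.00377 in the authors' deposited table). It was the 1 of 33 fatty acid oxidation genes with an unadjusted p below 0.05. Of the 33, 28 were higher, with a median of 0.13, and 20 of 33 when the columns were rescaled, with a median of 0.04. Ucp3, an uncoupling protein of muscle, was at 0.62 and Decr1, an auxiliary enzyme of unsaturated fatty acids, at 0.23. The list's median was −0.25 in NR TAC over NR SHAM and −0.32 in Vehicle TAC over Vehicle SHAM. The tricarboxylic acid cycle had a median of 0.02 over 24 genes, −0.07 after rescaling. Glycolysis had one of −0.05 over 24, with Pfkp, the platelet form of phosphofructokinase, at −0.55 (2051.8 in NR TAC and 3000.1 in Vehicle TAC, DESeq p 0.0481 in the authors' deposited table).

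Genes that make, use or break down NAD+ showed no common direction. Of 26 with a mean of at least 50, of 32 in the table, 13 were higher and 13 lower, with a median of 0.00 and 0 at an unadjusted p below 0.05. Nmrk2, the muscle kinase that phosphorylates nicotinamide riboside, stood apart in size, with 468.6 in NR TAC and 2334.9 in Vehicle TAC (effect −2.31, DESeq p 0.108 in the authors' deposited table). Nmrk2 was at 1.43 in NR TAC over NR SHAM and 2.87 in Vehicle TAC over Vehicle SHAM. In sham hearts it had 157.8 in NR SHAM and 288.4 in Vehicle SHAM (−0.87, unadjusted p 0.0165 in the authors' deposited table). Nampt, the rate-limiting enzyme of the salvage of nicotinamide, had 11884.8 in NR TAC and 9135.4 in Vehicle TAC (0.38, p 0.0868). Sirt1, a nuclear NAD+-dependent deacetylase, was at 0.33 and Cd38, an NAD+ glycohydrolase, at −0.33.

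The short-chain dehydrogenases/reductases, NAD(P)-dependent enzymes of steroid, retinoid and lipid metabolism that the series title names, also showed no common shift. Of 48 with a mean of at least 50, of 56 in the table, 18 were higher and 30 lower, with a median of −0.06 and 0 at an unadjusted p below 0.05. The lowest value was that of Hsd17b13, a lipid droplet protein of hepatocytes, with 0.85 in NR TAC and 161.8 in Vehicle TAC (−6.46). Dhrs7c, a member of muscle sarcoplasmic reticulum, had 3427.8 in NR TAC and 3053.2 in Vehicle TAC (0.17, DESeq p 0.495 in the authors' deposited table). Dhrs11 and Decr1 were each at 0.23, and Bdh1, the mitochondrial enzyme of ketone use, at −0.27.

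Lists of cellular stress responses had medians near 0. Of 25 genes of the unfolded protein response and endoplasmic-reticulum-associated degradation 12 were higher, with a median of 0.00, and the 2 with an unadjusted p below 0.05 were Herpud1 and Crebrf (0.44). Crebrf encodes a regulator of CREB3, a factor of the same compartment. Dnajb9, a chaperone, was at 0.29 and Sec61b, of the translocon, at −0.31. The integrated stress response had a median of −0.12 over 19 genes, with Ddit3, the transcription factor CHOP, at −0.40 (DESeq p 0.0344 in the authors' deposited table) and Gdf15 as above. Heat shock, immediate early and interferon genes had medians of 0.04, 0.06 and 0.01, each below 0 after rescaling, with 0 members at an unadjusted p below 0.05. Antioxidant enzymes had a median of −0.05 over 27 genes and the cell cycle one of −0.21 over 18, which was −0.41 at a minimum mean of 10 and 0.22 at one of 200.

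**Figure D4:**
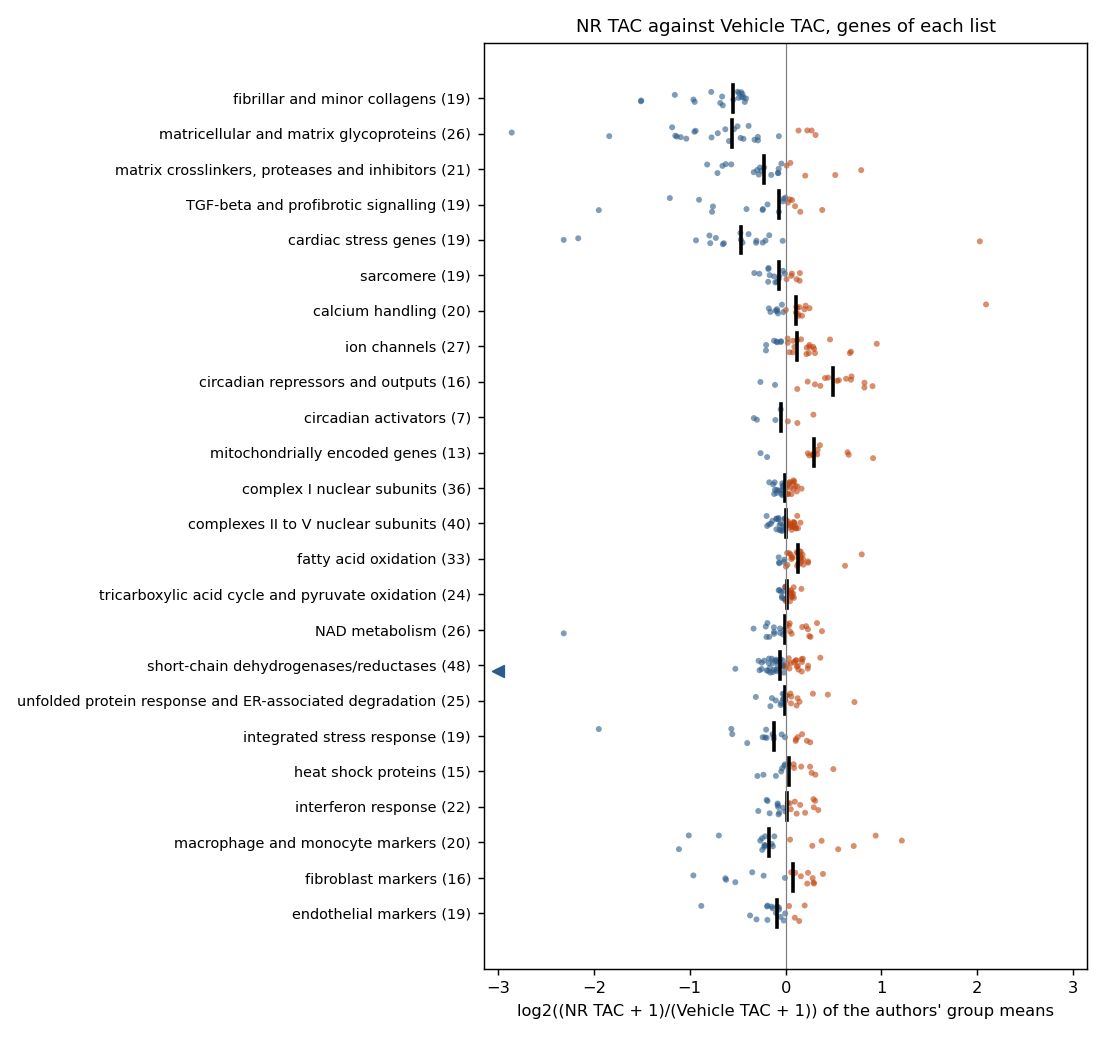
Effect of each gene in 24 lists (points, orange above 0 and blue below; the number of genes in parentheses) with the median as a black bar; the triangle is Hsd17b13 at −6.46, beyond the axis. Collagens (median −0.55), matricellular genes (−0.56) and cardiac stress genes (−0.47) lie left of 0, clock repressors and outputs (0.49) and mitochondrially encoded genes (0.29) right of it, and nuclear respiratory subunits near 0.

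Transcripts of hepatocytes accounted for the lowest effects. Of 29 plasma protein genes of the liver 28 were lower in NR TAC, with a median effect of −7.94. Of the 29, 16 had an unadjusted p below 0.05, all lower, against 2.02% of all genes in that direction. Alb, the gene of albumin, had 10.7 in NR TAC and 25364.2 in Vehicle TAC (effect −11.08, DESeq p 0.0142 and adjusted p 1 in the authors' deposited table). Gc, the vitamin D-binding protein, had 0.43 in NR TAC and 2317.1 in Vehicle TAC. Fgb, a fibrinogen chain, and Cyp2c29, a liver cytochrome P450, were listed at 0 in NR TAC, against 1732.6 and 1900.9 in Vehicle TAC. All 25 hepatocyte enzyme genes were lower, with a median of −5.58. Many genes of both lists passed the minimum mean only through Vehicle TAC, so these directions, medians and low p-values are a description. Hnf4a, the defining transcription factor of hepatocytes, had 0.75 in NR TAC and 214.4 in Vehicle TAC. The member that was higher was C3, a complement component also made outside the liver, at 0.30. Ahsg, Vtn and Cyp2e1 were present in both groups, with 1023.5 (Ahsg), 682.9 (Vtn) and 633.6 (Cyp2e1) normalized counts in NR TAC and 3282.3 (Ahsg), 1563 (Vtn) and 4041.7 (Cyp2e1) in Vehicle TAC. The hepatocyte lists together were 0.0424% of the NR TAC column and 0.213% of the Vehicle TAC column, or 0.0134% and 0.188% without C3. Markers of other liver cells had no common direction: 4 of 10 had a mean of at least 50, with 2 higher and a median of 0.27, which was −0.57 at a minimum mean of 10 and −0.40 at one of 200. Of its macrophage markers, Vsig4 (1.08) and Timd4 (0.94), which heart macrophages also make, were higher in NR TAC, and Clec4f, under the minimum mean, had 2.39 in NR TAC and 27.9 in Vehicle TAC.

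In the same lists Vehicle TAC stood high against sham hearts too: the plasma protein median was 7.93 in Vehicle TAC over Vehicle SHAM and −1.53 in NR TAC over NR SHAM. The sham groups were not at 0, with Alb at 106.8 in NR SHAM and 23.1 in Vehicle SHAM, and 23 of 29 plasma protein genes higher in NR SHAM. A total of 174 genes with a mean of at least 50 had a Vehicle TAC mean of 8-fold or more that of Vehicle SHAM, and 174 of 174 were lower in NR TAC than in Vehicle TAC; since Vehicle TAC values chose them, this direction is a description. They made up 166 of the 235 genes with an effect of −1 or lower (1.82% of all) and 84 of the 261 genes lower with an unadjusted p below 0.05. Without these 8-fold genes the plasma protein median was −1.19 and the enzyme median −0.45. Of the other 69 genes with an effect of −1 or lower, 6 had such a p. The collagen median without the 8-fold genes was −0.52 and that of cardiac stress genes −0.42. Only 1 of the 19 collagens and 3 of the 19 cardiac stress genes were among the 8-fold genes, so these medians could change little. The 8-fold genes thus also held heart genes, such as Acta1, at 3.30 in Vehicle TAC over Vehicle SHAM. Whether 1 library or several carried the hepatocyte transcripts cannot be seen from the means.

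Among genes with an unadjusted p below 0.05, the highest effects were those of Ucp1, of brown fat, and Bmp10, of the atrium. An effect of 1 or higher was found in 57 genes (0.441%), of which 6 had an unadjusted p below 0.05 and 51 a p of 0.1 or more. Bmp10, a growth factor gene of atrial muscle in the adult heart, had 6913.1 in NR TAC and 67.1 in Vehicle TAC (effect 6.67, DESeq p 0.0282 and adjusted p 1 in the authors' deposited table). Of 14 atrial markers 13 were higher, with a median of 0.96. Sln, sarcolipin, had 4621.2 in NR TAC and 1083.5 in Vehicle TAC, Myl4 had 23562.9 in NR TAC and 5779.3 in Vehicle TAC, and Myl7 had 10949.2 in NR TAC and 3230.6 in Vehicle TAC, with p-values of 0.287, 0.298 and 0.338 in the authors' deposited table. Nppa, which atria also make, was the member that was lower. In sham hearts the atrial list lay on the other side, with 13 of 14 lower in NR SHAM than in Vehicle SHAM and Bmp10 at 4.06 in NR SHAM and 948.9 in Vehicle SHAM. How much atrium each piece of heart held is not given, and its part in these values was not tested.

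Ucp1, the uncoupling protein that defines brown fat, had 155.5 in NR TAC and was listed at 0 in Vehicle TAC (DESeq p 0.00188 and adjusted p 1 in the authors' deposited table). Ucp1 passed the minimum mean only through NR TAC, so its direction and low p are a description. Of 16 adipocyte markers 13 were higher in NR TAC, with a median of 0.33, or 0.20 at a minimum mean of 200, and Plin4, a lipid droplet protein also present in muscle, had 8064.3 in NR TAC and 5834.6 in Vehicle TAC (0.47, DESeq p 0.0083 in the authors' deposited table). Adipoq, adiponectin, had 197.4 in NR TAC and 75.9 in Vehicle TAC and Cidec, a lipid droplet protein of fat cells, had 252.4 in NR TAC and 108.2 in Vehicle TAC, with p-values of 0.344 and 0.364 in the authors' deposited table. In sham hearts 12 of 15 adipocyte markers were lower with NR. The next largest effects among genes with an unadjusted p below 0.05, predicted gene models left aside, were those of Vwc2, a secreted bone morphogenetic protein antagonist (114.1 in NR TAC and 54.9 in Vehicle TAC, 1.04), and Eya1, a transcriptional coactivator of muscle (103.4 in NR TAC and 49.7 in Vehicle TAC, 1.04). Eya1 too passed the minimum mean only through NR TAC.

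Immune genes were mixed. Macrophage and monocyte markers had a median of −0.18 with 7 of 20 higher. Timd4, a marker of resident macrophages, had 69.6 in NR TAC and 35.8 in Vehicle TAC (0.94, DESeq p 0.015 in the authors' deposited table), and Lyve1 and Cd163, of the same cells, were at 0.55 and 0.38. Timd4 passed the minimum mean only through NR TAC, so its direction and low p are a description. Of other members, Adgre1 was at 1.21, Mertk at 0.05, Mrc1 at −0.13, and C1qa, C1qb and C1qc at −0.22, −0.14 and −0.26. Trem2, a lipid-sensing receptor of macrophages, and Cx3cr1, the fractalkine receptor, were at −1.11 and −1.01. A few genes named after their values were seen had high NR TAC means without a low p: Cxcl13, a B-cell chemokine, had 2828.3 in NR TAC and 27.5 in Vehicle TAC (DESeq p 0.152), Marco, a scavenger receptor of macrophages, had 215 in NR TAC and 7.2 in Vehicle TAC (p 0.257), and Saa3, an acute-phase protein, had 270 in NR TAC and 10.6 in Vehicle TAC (p 0.269) in the authors' deposited table. Endothelial markers had a median of −0.09, with Aplnr the 1 of 19 at an unadjusted p below 0.05, and smooth muscle and pericyte markers one of −0.03 with 6 of 14 higher, such as Lmod1 (0.70) and Myh11 (0.50). Cspg4, the pericyte proteoglycan NG2, was the 1 of these 14 at such a p, and had 776.8 in NR TAC and 1183.2 in Vehicle TAC (−0.61, DESeq p 0.00293 in the authors' deposited table). Blood markers had a median of −0.02 over 8 genes.

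**Figure D5:**
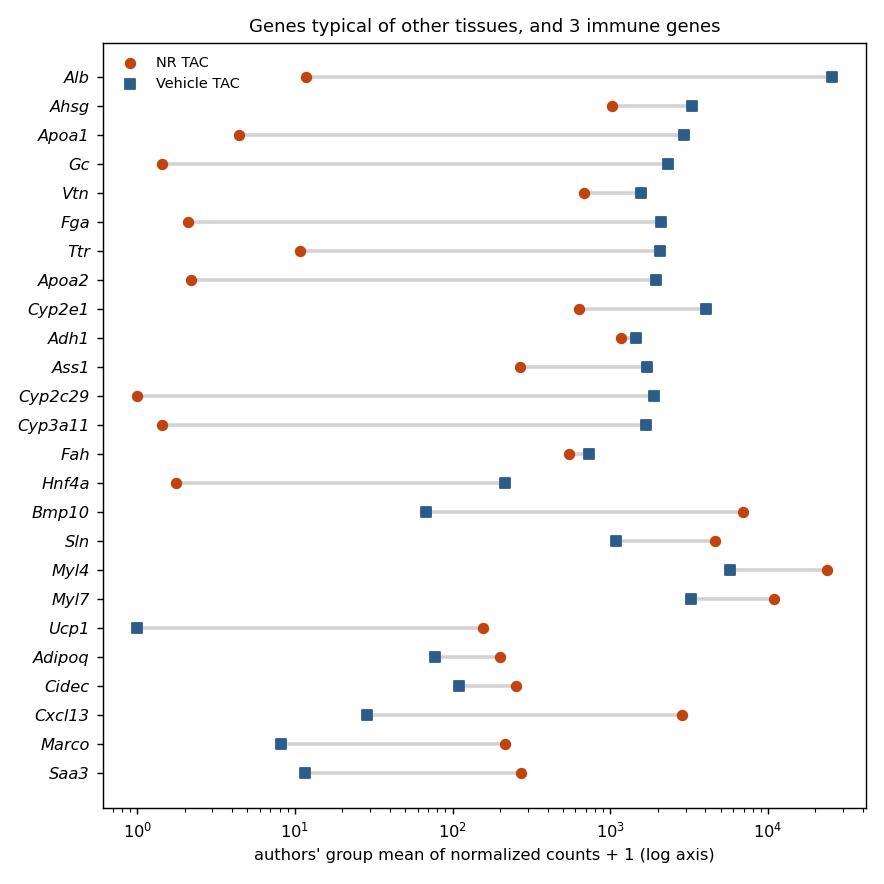
Group means of normalized counts plus 1 on a log axis for hepatocyte genes (top, Alb to Hnf4a), atrial markers (Bmp10 to Myl7), fat markers (Ucp1 to Cidec) and 3 immune genes, with NR TAC as orange circles and Vehicle TAC as blue squares. Hepatocyte genes have the NR TAC mean to the left, down to −11.08 on the log2 scale for Alb, and the others have it to the right, with Ucp1 listed at 0 in Vehicle TAC.

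The effect of NR in TAC hearts was then set beside that in sham hearts, over 12876 genes found in both tables, of which 49.6% were higher in NR SHAM than in Vehicle SHAM. Of 128 genes higher with an unadjusted p below 0.05 in TAC hearts, 105 (82.0%) were also higher in SHAM hearts, with a median effect there of 0.20. Of 237 genes lower in TAC hearts, 152 (64.1%) were also lower in SHAM hearts, and 149 of 177 (84.2%) when the genes of 8-fold or more in Vehicle TAC over Vehicle SHAM were left out. These 8-fold genes went the other way in sham hearts, where 109 of 138 (79.0%) were higher with NR, with a median of 1.18. A low Vehicle SHAM mean helped choose these genes and also raises their NR effect in sham hearts. Their direction there, and the share of lower genes without them, are therefore descriptions. Across all 12876 genes Pearson's r of the NR effects was −0.49 and Spearman's rho 0.23, and without the 8-fold genes r was 0.05 and rho 0.26. Genes are not independent replicates. Hepatocyte, atrial and fat lists had medians of opposite sign in TAC and SHAM hearts, whereas collagens, cardiac stress genes and clock repressors and outputs had medians of the same sign in both. The difference between the NR effects of the 2 surgeries was not tested here.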

How the data were processed

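Total RNA of mouse hearts was sequenced in 16 libraries, and the submitters' processing notes name TopHat, HTSeq and, for the authors' tests, DESeq, with GRCm38 and no versions. Each of the 4 deposited tables compares 1 pair of groups. A signal value in the deposited tables is the mean over a group of read counts scaled by size factors of that pair, per the file headers and the values. The authors' deposited fold (ratio) divides the means after adding 1 to both, and the effects computed here match its deposited log2 value. The deposited p-value is the authors' DESeq test, with a Benjamini-Hochberg adjustment over the table. Adding 1 understates differences of low genes. No test was run anew, since group means only were used. Depth per library is not given in the sources used here, and the p-values reflect no more than the variation among these libraries, which may be technical.

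Genes with a mean of at least 50 were kept, and 42 lists were summarised by counts and medians (Python 3.11.15, pandas 2.3.3), beside the same over all genes; the summaries were tested on simulated data. The members and lists were chosen with earlier results of these data known. Genes named were the 8 of smallest p in each direction, predicted gene models left out, the 4 of largest effect with a p below 0.05, up to 3 of smallest p in each list, the members of highest mean in marker lists, and Nppa, Nppb, Myh7, Myh6, Acta1, Nmrk2, Nampt, Dhrs7c and Alb. Of these, 1 gene of low p is left out here. Other genes given were chosen after their values were seen. Alternatives changed the threshold, the minimum mean, the pseudocount and the scaling, or left out genes whose Vehicle TAC mean was 8-fold or more that of Vehicle SHAM. Positions are from GENCODE and promoters from RefSeq on GRCm38.p6.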

Additional observations from a re-analysis of the deposited data

How the results depend on the processing

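The authors' deposited table gave 0 called genes at thresholds of 0.01 and 0.10 as well, and with p-values adjusted over genes with a mean of at least 50 or of at least 10. Genes higher in NR TAC with a low unadjusted p numbered 36 at a threshold of 0.01, beside 129 at 0.05, and those lower numbered 47, beside 261, since a stricter threshold admits fewer. With a minimum mean of 200 the lower ones numbered 159. The hepatocyte plasma protein median was −5.89 with a pseudocount of 10, −7.83 with a minimum mean of 10 and −1.19 when genes of 8-fold or more in Vehicle TAC over Vehicle SHAM were left out, beside −7.94. The collagen, cardiac stress, mitochondrially encoded and clock repressor medians stayed within 0.1 under every alternative run. Rescaling the columns to equal totals, counted without those 8-fold genes, moved all effects by −0.09, and 7 of 42 list medians, all near 0, changed sign. The 13 mitochondrially encoded genes are part of these totals, with sums of 15620126.4 in NR TAC and 12976165.1 in Vehicle TAC. The shift therefore also carries their difference onto all other genes. Leaving those 8-fold genes out of the comparison with sham hearts was chosen after seeing the data. Leaving out each library was not run and no paired fit could be made from means. No paired analysis was possible because the tables hold group means and the library numbers are shared by no groups.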

Other observations

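Keratin genes that are not usual in heart muscle were lower in NR TAC. Krt18 had 74.5 normalized counts in NR TAC and 211.4 in Vehicle TAC (effect −1.49, DESeq p 0.0981 in the authors' deposited table), and Krt8, its partner, had 32.1 in NR TAC and 109.4 in Vehicle TAC (−1.74, DESeq p 0.167). Both are made by hepatocytes and other epithelia, and mesothelial markers proper were mixed, with Wt1 at 0.27 and Msln at −0.38. Genes of the atrial conduction and channel group lay with the atrial markers: Kcnj3, a subunit of the acetylcholine-gated potassium channel, had 4557.1 in NR TAC and 2355.7 in Vehicle TAC (0.95), and Gja5, connexin 40, had 556.1 in NR TAC and 349 in Vehicle TAC (0.67). Sbk3 and Mybphl, chosen after their values were seen, had 2783.9 and 2485.2 in NR TAC and 477 and 546.4 in Vehicle TAC, with DESeq p-values of 0.253 and 0.27 in the authors' deposited table.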
